A study of Mus musculus with 10 samples.

Results

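Of the 41249 genes counted in interscapular brown adipose tissue (iBAT), 10 genes of the Notch pathway are described here, namely the receptors Notch1, Notch2 and Notch4, the ligands Dll4, Jag1 and Jag2, the target genes Hes1, Hey1 and Heyl, and Nrarp, a target gene whose product restrains the pathway. They were named as a list of pathway genes, and Nrarp was chosen by its fall in Axl KO mice, so that its difference between the groups is a description and carries no test. All 10 genes passed the filter on low counts (a mean above 1 CPM, counts scaled to library size), together with 13739 genes in all. The bulk RNA came from whole depots of 5 Axl KO and 5 wild-type (WT) mice, all male, on a C57BL/6 background, kept at room temperature and fed a high-fat diet (HFD). Feeding began when the mice were 6 to 8 weeks old and lasted 24 weeks per the sample records. The methods of the study give a slightly later starting age, and a figure legend gives a slightly longer feeding. Axl KO mice carried a constitutive deletion of the receptor tyrosine kinase Axl in the whole body (a knockout-first allele with a gene-trap cassette, homozygous), so that the deletion was not limited to adipocytes.

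Notch receptors are single-pass proteins that are activated by ligands of the Delta and Jagged families on a neighbouring cell. Ligand binding exposes the receptor to cleavage by ADAM proteases and then by gamma-secretase, and the released intracellular domain enters the nucleus, where it joins the DNA-binding protein RBPJ and a Mastermind coactivator and switches on genes such as those of the HES and HEY repressors and Nrarp. In blood vessels Dll4 and Notch1 restrain sprouting, Notch4 is largely endothelial, Notch3 and Heyl are known from pericytes and vascular smooth muscle, and in fat cells Notch activity has been linked to less thermogenic gene expression.

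Promoter sequence was available for 7 of the 10 genes (GRCm38.p6, RefSeq), as the 250 bases before and the 50 bases after the start site. It was missing for the target genes Hes1, Hey1 and Heyl, so that the 7 are Nrarp, the receptors and the ligands. The motifs looked for on both strands were the RBPJ core TGGGAA with its longer form GTGGGAA, the HES and HEY site CACGNG, and the N-box CACNAG, and the latter 2 overlap where the sequence reads CACGAG. The 250 bases upstream of Nrarp and Dll4, the genes of the 10 with the lowest ratio of Axl KO to WT mean, and of Jag1, whose group means were nearly equal, are shown 5′ to 3′ on the strand of the gene, with matches to CACGNG or CACNAG in capitals.
Nrarp, upstream window chr2:25180508-25180757, plus strand: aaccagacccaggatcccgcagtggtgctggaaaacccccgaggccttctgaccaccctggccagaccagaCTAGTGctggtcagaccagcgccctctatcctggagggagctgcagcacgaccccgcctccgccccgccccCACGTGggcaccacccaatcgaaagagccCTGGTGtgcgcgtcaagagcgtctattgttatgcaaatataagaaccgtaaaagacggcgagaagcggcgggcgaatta
Dll4, upstream window chr2:119325534-119325783, plus strand: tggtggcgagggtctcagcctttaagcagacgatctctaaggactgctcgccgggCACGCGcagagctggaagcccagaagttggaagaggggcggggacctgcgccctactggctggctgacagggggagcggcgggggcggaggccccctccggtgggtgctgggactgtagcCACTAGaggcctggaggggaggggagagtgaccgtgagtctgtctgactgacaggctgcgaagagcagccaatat
Jag1, upstream window chr2:137116521-137116770, minus strand: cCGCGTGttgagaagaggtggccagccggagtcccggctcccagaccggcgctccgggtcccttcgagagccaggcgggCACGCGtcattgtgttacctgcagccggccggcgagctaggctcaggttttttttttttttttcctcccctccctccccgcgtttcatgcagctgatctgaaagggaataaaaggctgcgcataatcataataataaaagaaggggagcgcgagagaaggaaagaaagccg
The Nrarp window held a palindromic CACGNG match that starts 108 bases before the start site, read on both strands, and N-box matches at 179 and 79 bases. Dll4 had a CACGNG match at 195 and an N-box match at 75 bases before its start, and Jag1 had CACGNG matches at 249 and 171 bases. Of the 7 promoters, 0 held TGGGAA, which 25.6% of all 32851 promoters in the table held, or GTGGGAA, held by 6.38%. CACGNG stood in 5 of the 7 and in 27.5% of all promoters, and CACNAG in 4 of the 7 and in 42.5% of all. The 7 promoters hold 55.7 to 86.0% G and C bases, and a match to these letters is a description of the window alone.

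The total count per mouse lay between 5431014 and 9580215, and values are given as normalized counts in CPM with library sizes scaled by edgeR (TMM). Axl was at 2.01, 1.96, 1.75, 0.438 and 1.70 CPM in Axl KO mice 1 to 5 and at 52.4, 38.3, 41.4, 38.6 and 45.3 CPM in WT mice 1 to 5, low in each mouse labelled as a knockout. It was the 1 gene of 13739 (0.00728%) that differed at an adjusted p under 0.05 (edgeR quasi-likelihood test, Benjamini-Hochberg adjustment; adjusted p = 1.09e-07), so that 0 of the 9 Notch genes that can be tested were called, and none of the 9 was called by DESeq2 either. Before adjustment, 1152 genes (8.38%) had a p under 0.05, and 0 of the 9 did. With 1 mouse left out the count among the 9 was 0 to 2, and 5.94 to 14.8% of all genes passed. Each library is 1 mouse, and the sample records name no pairing of mice across the groups.

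Nrarp had 47.0% of the WT mean in Axl KO mice, and each of the 5 Axl KO mice lay below each of the 5 WT mice. Since it was picked for this difference, the separation is a description. Its normalized count was 2.94, 2.26, 2.45, 3.06 and 1.51 CPM in Axl KO mice 1 to 5, against 6.29, 4.56, 3.82, 4.14 and 7.19 CPM in WT mice 1 to 5. The highest Axl KO mouse was mouse 4 and the lowest WT mouse was mouse 3, and mouse 5 was the lowest of the Axl KO and the highest of the WT mice. The means were 2.44 ± 0.620 CPM (SD, n = 5) and 5.20 ± 1.47 CPM (SD, n = 5), a log2 fold change of -1.07 with a standard error of 0.24. Over all genes 187 (1.36%) had groups without overlap, and none of the other 9 Notch genes did. These are small numbers of reads, 8 to 21 counts per Axl KO mouse and 24 to 57 per WT mouse, and counting alone gives a coefficient of variation of 24.4% and 15.7%, against 25.4% and 28.2% measured among the mice of each group.

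Nrarp (ENSMUSG00000078202) lies on chromosome 2 at 25180758 to 25183339 (GRCm38, plus strand), and 2051 of its 2582 exonic bases (79.4%) are also exonic in Gm38287, an antisense transcript with 3 counts in all 10 mice. Whether the reads were counted by strand is not given in the sources used here, so reads in the shared stretch may belong to either gene or may have been dropped. Within genotypes, the genes whose log2 CPM followed that of Nrarp most closely over the 10 mice were Arrb2 (Pearson's r = 0.968), Fam84b (0.962), Sh3pxd2b (0.938), Cop1 (0.909) and Commd2 (0.897), after removal of each genotype's mean and out of 10380 genes with a mean of at least 5 CPM. Among the Notch genes the closest was Notch2 (r = 0.835, rank 30), followed by Heyl (r = 0.635, rank 414), whereas Notch1 (r = 0.149), Notch4 (r = 0.118) and Hes1 (r = -0.284) were far from it. These coefficients rank patterns in 10 libraries and carry no test.

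**Figure D1:**
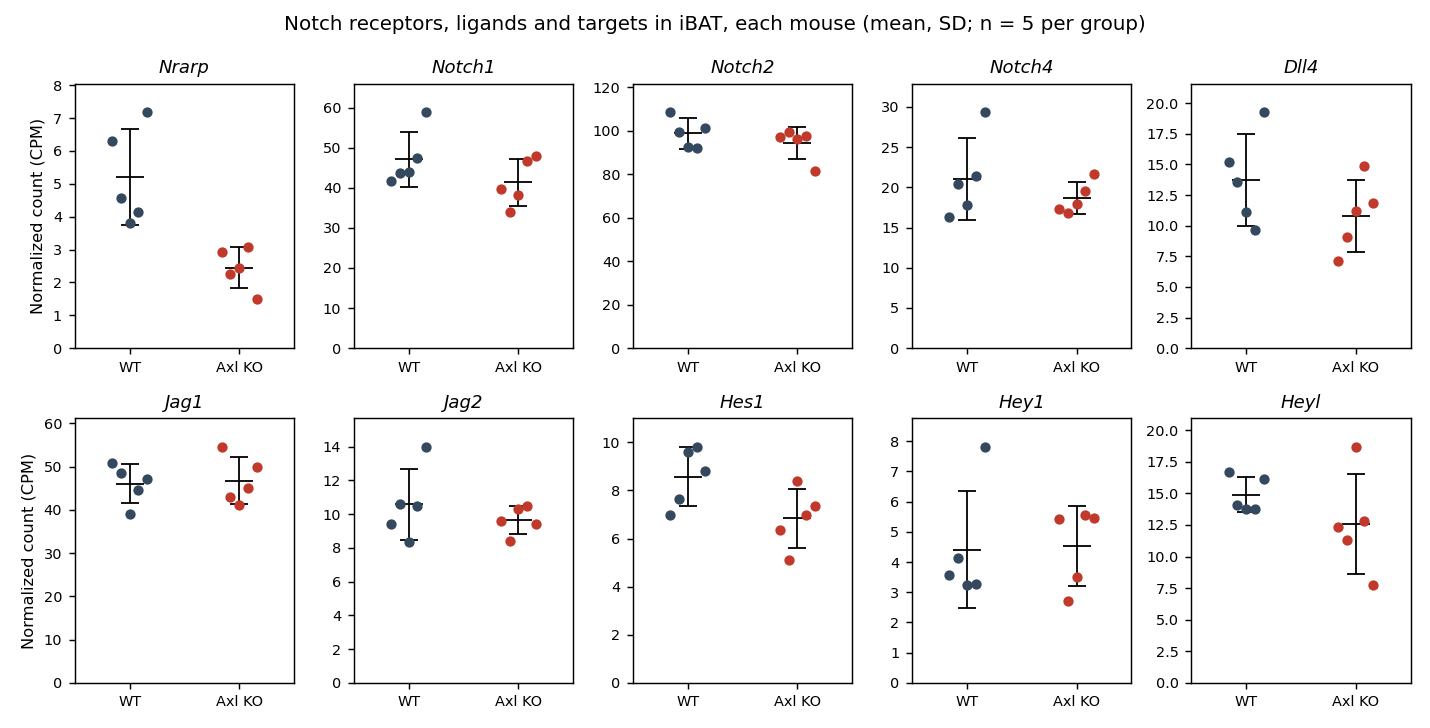
Normalized counts (CPM, vertical axis from 0) of the 10 Notch genes in each WT and Axl KO mouse; points are mice in order of replicate number, and bars give the mean and SD (n = 5 per group). Nrarp alone separates the groups, with Axl KO mice at 1.51 to 3.06 CPM and WT mice at 3.82 to 7.19 CPM.

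The receptors had lower means in Axl KO mice, with overlapping groups and differences within the spread between mice. Notch1, the receptor for sprouting control in endothelium, was at 39.7, 34.0, 38.2, 46.7 and 47.9 CPM in Axl KO mice 1 to 5 and at 41.6, 43.6, 43.9, 47.4 and 58.9 CPM in WT mice 1 to 5. Axl KO mice 1, 2 and 3 lay below all WT mice, and the other two lay among them. The means were 41.3 ± 5.86 and 47.1 ± 6.93 CPM (SD, n = 5 each), with a log2 fold change of -0.19 (95% confidence interval -0.44 to 0.05, edgeR adjusted p = 0.653).

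Notch2, the most abundant receptor, was the steadiest of the 10 genes, between 81.3 and 99.4 CPM in Axl KO mice and between 91.8 and 108.6 CPM in WT mice. The other Axl KO mice were within 96.3 to 99.4 CPM and mouse 5, which also had the least Nrarp, stood below them at 81.3 CPM. The log2 fold change was -0.06 (95% confidence interval -0.21 to 0.09, edgeR adjusted p = 0.815), and it was -0.02 without Axl KO mouse 5. Notch4, a receptor known mainly from endothelium, ranged from 16.9 to 21.7 CPM in Axl KO mice and from 16.3 to 29.4 CPM in WT mice, with a log2 fold change of -0.18 (95% confidence interval -0.49 to 0.14, edgeR adjusted p = 0.746). Its range in WT mice was set by mouse 5, and the next WT mouse had 21.4 CPM, inside the Axl KO range.

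Among Dll4, Jag1 and Jag2, the ratio of Axl KO to WT mean was lowest for Dll4. This ligand of endothelial tip and arterial cells was at 7.11, 9.04, 11.2, 14.9 and 11.9 CPM in Axl KO mice 1 to 5 and at 15.2, 13.6, 11.1, 9.65 and 19.3 CPM in WT mice 1 to 5. The groups overlapped widely, with Axl KO mouse 4 above 3 of the WT mice. The means were 10.8 ± 2.94 and 13.8 ± 3.76 CPM (SD, n = 5 each), and the log2 fold change was -0.35 (95% confidence interval -0.81 to 0.10, edgeR adjusted p = 0.654). Jag1, a ligand of endothelial, mural and stromal cells, had nearly the same mean in both groups, 46.8 ± 5.47 in Axl KO and 46.0 ± 4.49 CPM in WT mice (SD, n = 5 each). Its log2 fold change was 0.02 (95% confidence interval -0.18 to 0.22, edgeR adjusted p = 0.967), and its sign turned with the mouse left out. Jag2, a related ligand of lower abundance, spanned 8.43 to 10.5 CPM in Axl KO mice and 8.34 to 14.0 CPM in WT mice, with a log2 fold change of -0.13 (95% confidence interval -0.43 to 0.17, edgeR adjusted p = 0.813).

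The transcriptional targets differed among themselves. Hes1, a repressor induced by many inputs besides Notch, was at 6.34, 5.12, 8.41, 7.00 and 7.35 CPM in Axl KO mice 1 to 5 and at 6.98, 7.64, 9.62, 9.82 and 8.83 CPM in WT mice 1 to 5. All 5 Axl KO mice lay below the WT median of 8.83 CPM, although 3 of them were above the lowest WT mouse. The log2 fold change was -0.32 (95% confidence interval -0.65 to 0.01, edgeR adjusted p = 0.602), from 34 to 83 counts per mouse.

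Hey1, a repressor expressed in arterial endothelium, had almost the same mean in both groups, 4.53 ± 1.33 in Axl KO and 4.41 ± 1.94 CPM in WT mice (SD, n = 5 each). The WT mean was carried by mouse 5 at 7.82 CPM, while the other WT mice had 3.24 to 4.14 CPM, and the log2 fold change of 0.02 became 0.33 when it was left out. Its 95% confidence interval, -0.60 to 0.64, is the widest of the 9 (edgeR adjusted p = 0.994) and includes a change of 1.5-fold in either direction. Heyl, a target known from vascular smooth muscle, was at 12.4, 11.3, 18.7, 12.8 and 7.73 CPM in Axl KO mice 1 to 5 and at 16.7, 14.1, 13.8, 13.8 and 16.1 CPM in WT mice 1 to 5. Axl KO mice 1, 2, 4 and 5 lay below all WT mice, and mouse 3 lay above all of them. The log2 fold change of Heyl was -0.22 (95% confidence interval -0.60 to 0.16, edgeR adjusted p = 0.742) and ranged from -0.42 without Axl KO mouse 3 to -0.10 without Axl KO mouse 5, called in neither case. In two-sided exact permutation tests of the mean CPM, the unadjusted p of the 9 genes ran from 0.0635 for Hes1 to 0.960 for Hey1.

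Over the 10 genes, 8 had a log2 fold change below 0 (7 of the 9 without Nrarp), where 50.3% of all genes did, and the median was -0.18 with and without Nrarp, against -0.00078 over all genes tested. WT mouse 5 had the highest value of all 10 mice for 6 of the 10 genes, namely Nrarp, Notch1, Notch4, Dll4, Jag2 and Hey1. Without that mouse the median of the 10 genes was -0.08 in place of -0.18, and Dll4, Notch1, Notch4 and Jag2 moved to log2 fold changes of -0.20, -0.10, -0.03 and -0.01. Nrarp was at -0.92 without it.

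**Figure D2:**
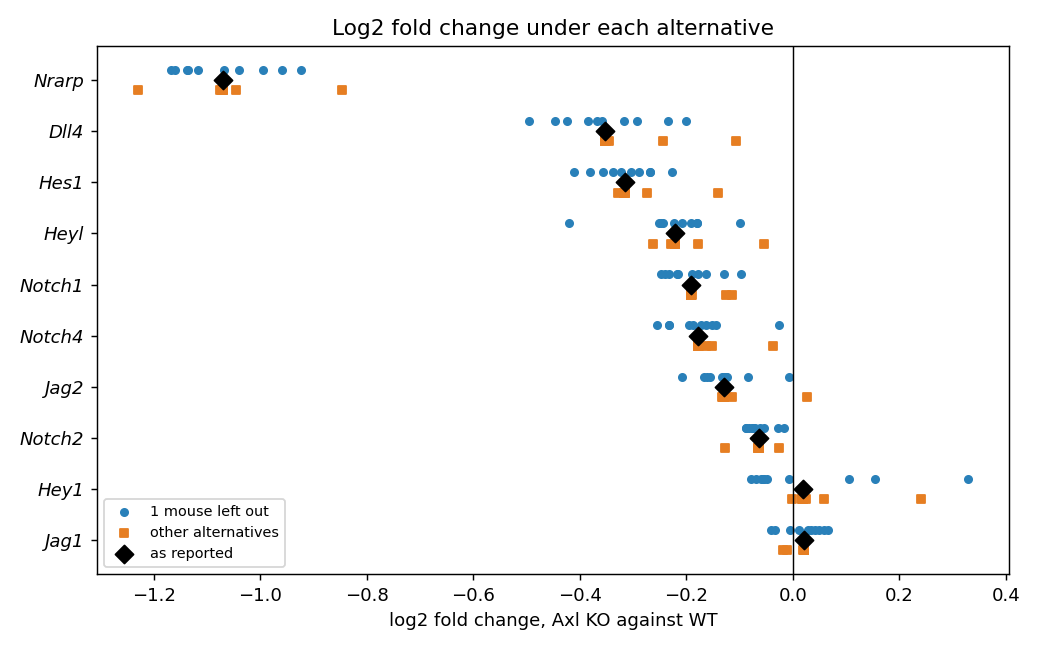
Log2 fold change (horizontal axis, Axl KO against WT) of each Notch gene as reported (diamonds), with 1 mouse left out in turn (circles) and under the other settings tried (squares). Nrarp stays between -1.23 and -0.85, and Jag1 and Hey1 fall on both sides of 0. Nrarp was picked by its fall and its groups do not overlap, so its sign could not turn with 1 mouse left out.

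Levels can be compared between genes only per length, as CPM per kb of annotated exon. In WT mice Notch2 (9.16 CPM per kb) and Jag1 (7.90 CPM per kb) stood above the other 8 genes, and no WT mouse overlapped between Jag1 and the next gene, Hes1, at 4.21 CPM per kb. From there the level declined in small steps, with Dll4 at 3.57, Notch1 at 3.31, Heyl at 2.91, Notch4 at 2.61, Nrarp at 2.01, Jag2 at 1.52 and Hey1 at 1.35 CPM per kb. The values of WT mice overlapped between all neighbours in this order except Jag1 and Hes1. Compared within each mouse, Notch2 was above Jag1 and Nrarp above Jag2 in 5 of 5 WT mice. Hes1 was above Dll4, and Dll4 above Notch1, in 3 of 5, and the other overlapping neighbours kept the order in 4 of 5. In Axl KO mice Nrarp had 0.947 CPM per kb, the lowest of the 10 genes, and Hey1 had 1.39 CPM per kb. Some exonic bases are shared with other annotated genes. The share was 79.4% for Nrarp with Gm38287 and 7.50% for Notch1 with 0610009E02Rik. It was 5.56% for Dll4 with Gm14207 and 5.02% for Notch2 with Gm42820, which took 509 counts itself. If reads in the shared stretch were dropped, the level per kb of Nrarp and its place in the order are too low.

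**Figure D3:**
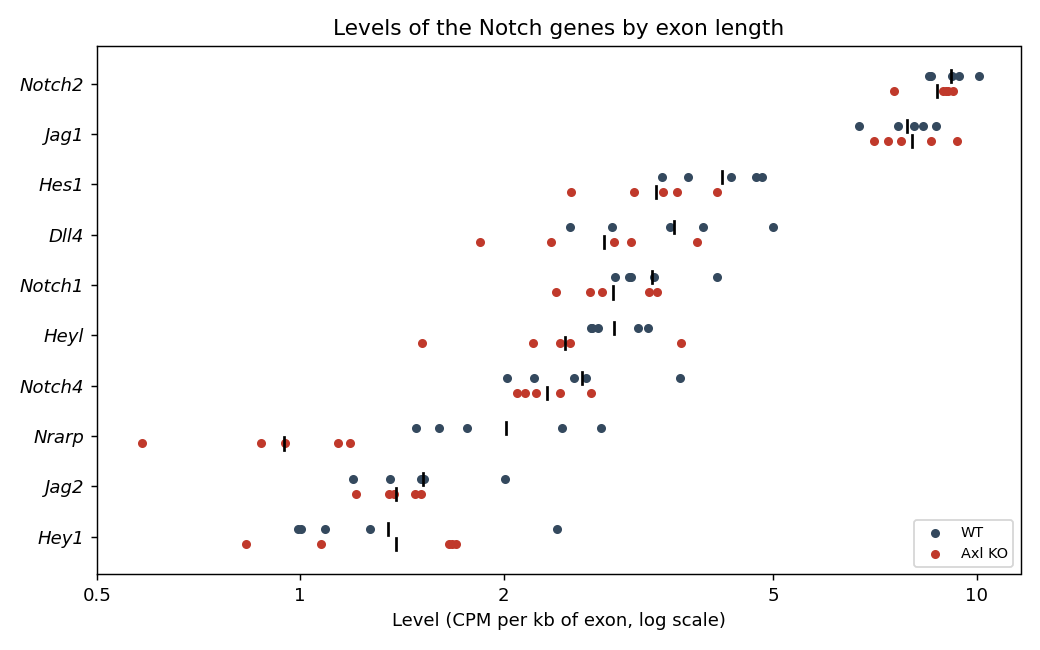
Level of each Notch gene in CPM per kb of exon (horizontal log axis); points are mice, WT above and Axl KO beneath in each pair, and vertical ticks are group means. Notch2 and Jag1 form an upper pair at 9.16 and 7.90 CPM per kb in WT mice, and Nrarp moves from 2.01 in WT to 0.947 in Axl KO mice.

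The remainder of the pathway was taken from lists of 73 genes sorted by role, the described receptors, ligands and targets included, of which 66 passed the filter (65 without Nrarp). Dll3, Dlk2, Dner, Dtx1, Rbpjl, Hes5 and Hes7 did not pass. Without Nrarp, 23 genes had higher and 42 lower fitted means in Axl KO mice, 0 of 65 were called, and 6 (9.23%) had an unadjusted p under 0.05, near the 8.38% of all genes. The median log2 fold change was -0.03. The lowest adjusted p of edgeR among them was 0.572.

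All 4 receptors had log2 fold changes below 0, and Notch3, the receptor of mural cells, had the largest difference of them. It was at 36.8, 38.7, 34.7, 35.9 and 28.9 CPM in Axl KO mice 1 to 5 and at 54.7, 41.5, 35.7, 38.6 and 60.0 CPM in WT mice 1 to 5, a log2 fold change of -0.40 ± 0.14 (SE, edgeR adjusted p = 0.572). WT mice 1 and 5 were well above the rest, and WT mice 3 and 4 lay within the Axl KO range. Of the 5 ligands that passed the filter, Dlk1, an atypical ligand, had the largest log2 fold change, -0.56 ± 0.41 (SE, edgeR adjusted p = 0.711), from 1 to 18 counts per mouse.

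Among genes that modify receptors and ligands, 4 of 6 for receptor maturation and glycosylation and 5 of 5 for ligand ubiquitination had lower fitted means, none of them called. Neurl3, a ubiquitin ligase of the Neuralized family, had a log2 fold change of -0.85 ± 0.35 (SE, edgeR adjusted p = 0.572) with 2 to 27 counts per mouse. Mfng, a fringe glycosyltransferase that changes which ligands a receptor answers to, had a log2 fold change of -0.56 ± 0.28 (SE, edgeR adjusted p = 0.602). The cleavage machinery was near level, with 5 genes higher and 4 lower of 9, a median of 0.06, and Aph1c, a gamma-secretase subunit, farthest from 0 at -0.29 ± 0.26 (SE, edgeR adjusted p = 0.802). Aph1c had 5 to 15 counts per mouse. The proteases Adam10 and Adam17 had log2 fold changes of -0.01 and 0.14.

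In the nuclear complex, Rbpj itself had a log2 fold change of -0.12 ± 0.13 (SE, edgeR adjusted p = 0.800) and 7 of the 9 genes had lower means. Maml2, a Mastermind coactivator, was the 1 pathway gene besides Nrarp whose groups did not overlap, at 7.29 to 11.1 CPM in Axl KO and 11.7 to 14.5 CPM in WT mice, with a log2 fold change of -0.44 ± 0.13 (SE, edgeR adjusted p = 0.572). The margin between the closest mice was small, 11.1 against 11.7 CPM, and 1 of 65 is near the 1.36% of all genes. Its paralogs Maml1 (0.00) and Maml3 (-0.13) had log2 fold changes closer to 0. Of 13 corepressors 8 had lower means, and Tle2, a Groucho-type corepressor, had a log2 fold change of -0.42 ± 0.19 (SE, edgeR adjusted p = 0.588).

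Genes that had higher means were fewer. Dtx4, a ubiquitin ligase of the Deltex family, had 26.8 ± 3.60 CPM in Axl KO and 19.7 ± 4.75 CPM in WT mice (SD, n = 5 each), a log2 fold change of 0.46 ± 0.14 (SE, edgeR adjusted p = 0.572). Only WT mouse 4, at 27.9 CPM, lay within the Axl KO range of 23.6 to 31.9 CPM. Hey2, the HEY repressor of arterial endothelium, was at 4.17, 1.51, 1.99, 2.33 and 6.22 CPM in Axl KO mice 1 to 5 and at 1.78, 0.743, 1.97, 1.72 and 1.26 CPM in WT mice 1 to 5. Axl KO mice 1 and 5 carried the higher mean, and the log2 fold change was 1.09 ± 0.40 (SE, edgeR adjusted p = 0.572), from 7 to 33 counts per mouse. The log2 fold change of Hey2 was thus opposite in sign to that of Nrarp within the same list of targets. Of the targets that passed the filter, 3 had higher and 3 lower means, and the lower ones include Nrarp, picked by its fall.

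**Figure D4:**
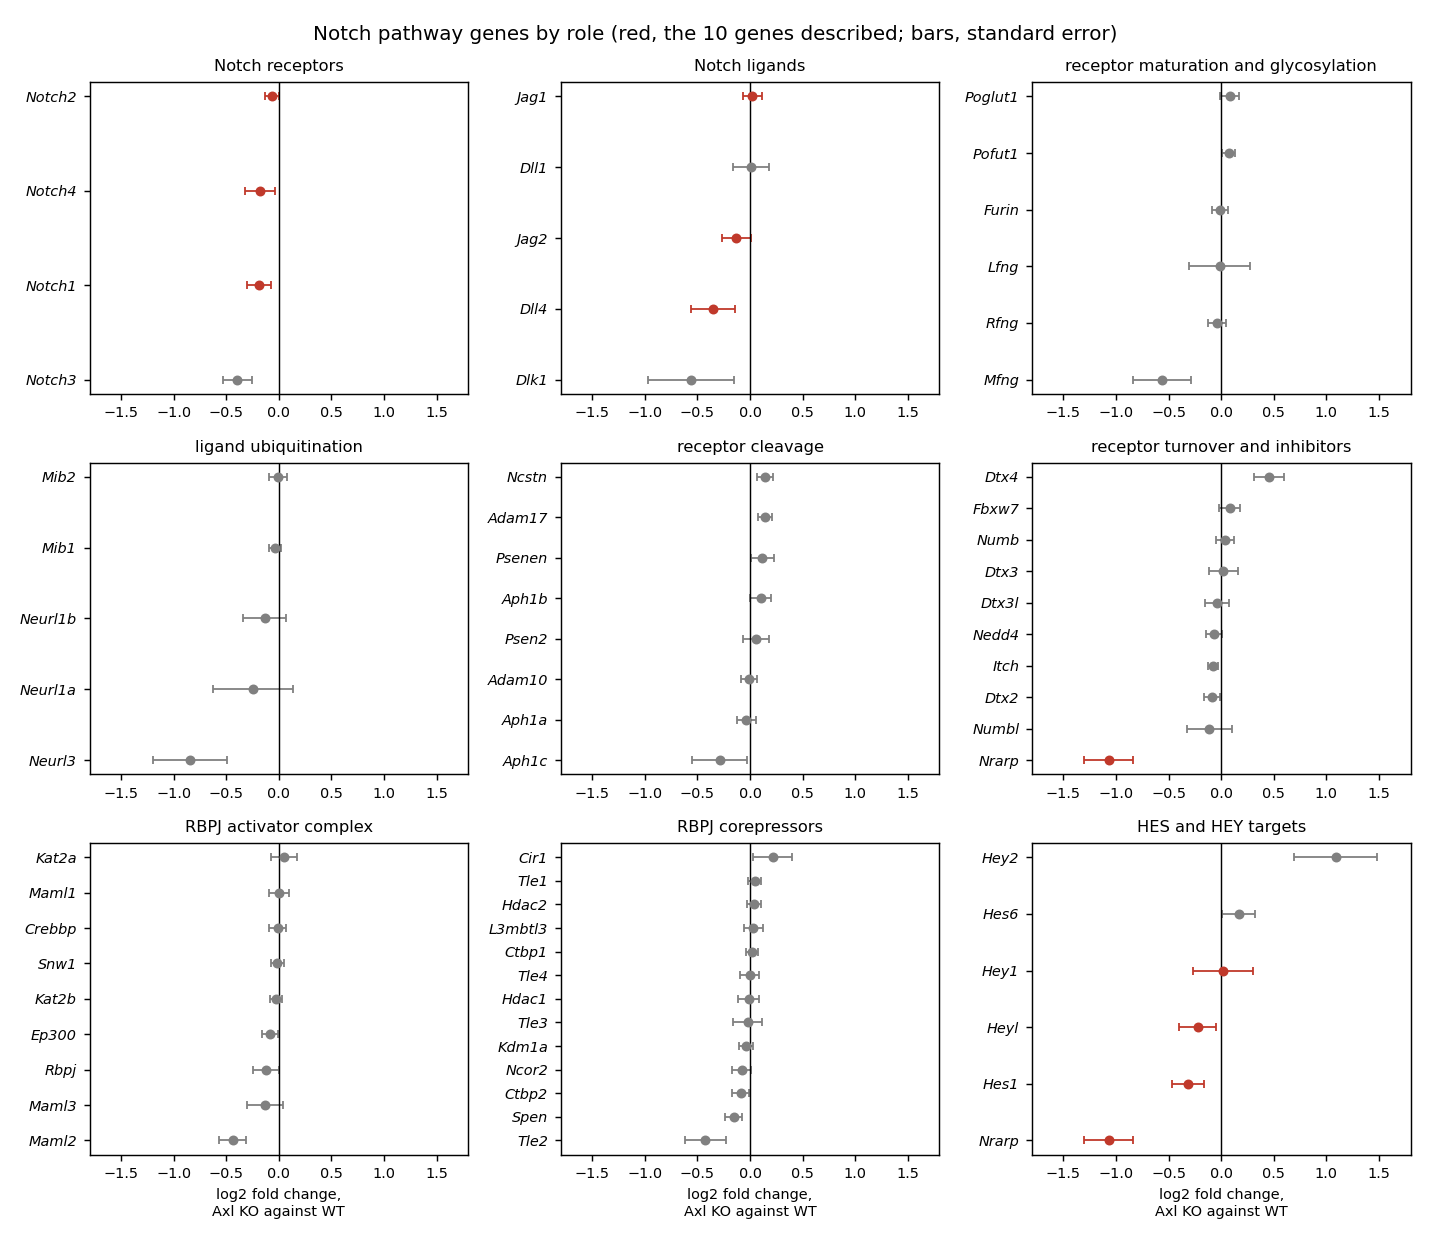
Log2 fold change (horizontal axis, Axl KO against WT) of 65 of the 66 pathway genes that passed the filter, 1 panel per role (Nrarp is in 2 of them); points are fitted values, bars are standard errors, and red marks the 10 genes described. Most genes sit near 0, with Nrarp at -1.07 and Hey2 at 1.09 the farthest from it.

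Lists of neighbouring biology gave no called gene. Of 9 arterial endothelial genes 6 had higher and 3 lower means, and the guidance receptor Unc5b had a log2 fold change of 0.38 ± 0.13 (SE, edgeR adjusted p = 0.572), with Hey2 the other gene of this list at an unadjusted p under 0.05. Of 8 tip cell genes 3 had higher and 5 lower means, with Angpt2, an antagonist of the Tie2 receptor, at -0.67 ± 0.37 (SE, edgeR adjusted p = 0.635), from 4 to 28 counts per mouse. Since the NRARP protein is also known to act on LEF1, genes of the LEF1 and TCF branch of Wnt signalling were read too, and 1 of the 6 that passed the filter was higher and 5 were lower, with the feedback inhibitor Nkd1 at a log2 fold change of -0.62 ± 0.32 (SE, edgeR adjusted p = 0.614). Nkd1 had 4 to 13 counts per mouse. Lef1 itself had 1 count over all mice. Axin2, a common readout of that branch, was near level, with a log2 fold change of -0.06.

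Markers of several cell types also had lower means in Axl KO mice. This held for 11 of 14 endothelial markers, whose log2 fold changes had a median of -0.17 beside the -0.18 of the Notch genes, and Cldn5, a tight junction gene, was at -0.73 ± 0.20 (SE, edgeR adjusted p = 0.572). The summed level of these markers was 655.1 to 853.8 CPM in Axl KO mice and 703.1 to 995.5 CPM in WT mice, highest in WT mouse 5. Of 10 pericyte and smooth muscle markers 8 were lower (median -0.09), and of 8 fibroblast markers 8 (median -0.32). Of 12 skeletal muscle markers 12 were lower (median -1.05), whereas of 10 brown adipocyte markers 9 were higher (median 0.14). The summed skeletal muscle markers ranged from 7.68 to 3422 CPM in Axl KO mice and from 805.7 to 3990 CPM in WT mice. Macrophage markers were split, with 3 of 8 higher and 5 lower, and B and T cell markers summed to no more than 2.86 CPM in any mouse. In bulk tissue, fewer cells of a type and less RNA per cell cannot be told apart.

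With the mean log2 CPM of the endothelial markers as a covariate, the median log2 fold change of the 10 genes was -0.05 and that of Nrarp was -0.85. Dll4 was then at -0.11, Heyl at -0.05, Notch4 at -0.04 and Hes1 at -0.27. With the skeletal muscle markers as a covariate Nrarp was at -1.23, and the median was -0.14. Hes1 was then at -0.14 in place of -0.32, Notch1 at -0.12 in place of -0.19 and Notch2 at -0.13 in place of -0.06. The part of tissue composition in the lower means of the other genes was not tested beyond these values.

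**Figure D5:**
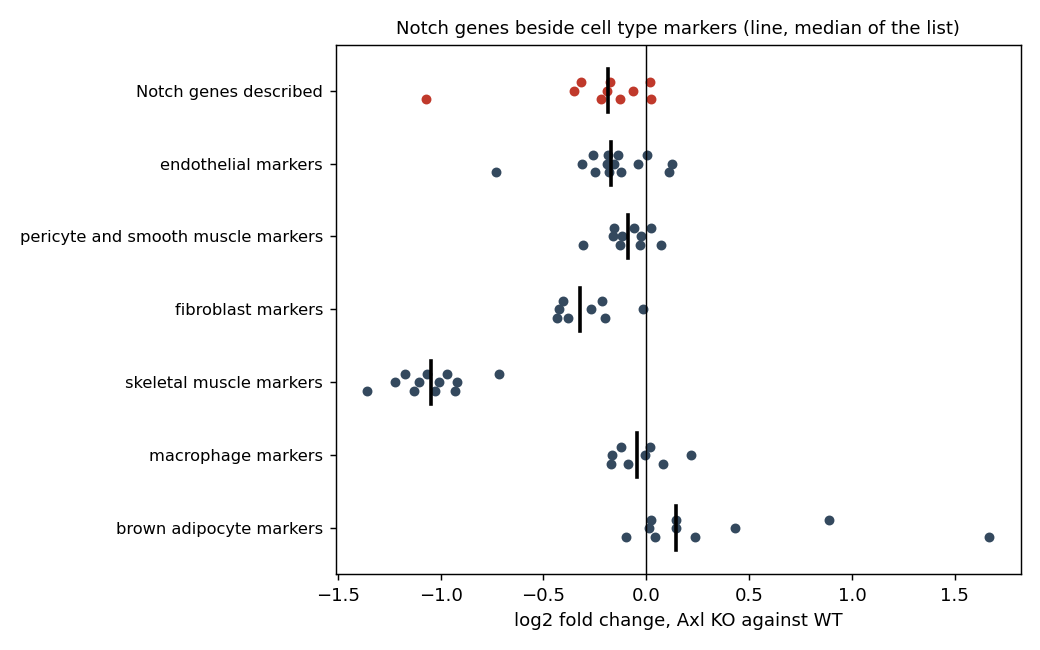
Log2 fold change (horizontal axis, Axl KO against WT) of the 10 Notch genes (red) and of the genes in 6 cell type marker lists; each point is a gene and each vertical line the median of its list. The medians are -0.18 for the Notch genes and -0.17 for endothelial, -0.09 for pericyte and smooth muscle and -0.32 for fibroblast markers. They are -1.05 for skeletal muscle, -0.05 for macrophage and 0.14 for brown adipocyte markers. Among the Notch genes, Nrarp lies apart at -1.07.

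Within genotypes, the Notch genes were also set against the endothelial markers over the 10 mice (log2 CPM with genotype means removed, two-sided exact permutation tests within genotype, 10 relations). None passed at an adjusted p under 0.05, with 1 of 10 below 0.05 before adjustment by Pearson's r and 2 by Spearman's rho. Jag2 had r = 0.72 (exact permutation p = 0.0376, adjusted p = 0.185) and rho = 0.56 (exact permutation p = 0.132, adjusted p = 0.329). Its r fell to 0.31 without the 2 mice farthest from the median of the markers, WT mouse 5 and Axl KO mouse 3. The size of r thus depended on those mice, although leaving out the farthest mice narrows the range of the markers and can lower r by itself. Dll4 had r = 0.66 (exact permutation p = 0.0555, adjusted p = 0.185) and rho = 0.73 (exact permutation p = 0.0347, adjusted p = 0.207), and r was 0.64 without the same mice. Heyl had r = 0.62 (exact permutation p = 0.0506, adjusted p = 0.185) and rho = 0.68 (exact permutation p = 0.0472, adjusted p = 0.207), and its r was 0.32 without those mice, with the same limit. Nrarp had r = 0.54 (exact permutation p = 0.141, adjusted p = 0.352), rho = 0.67 (exact permutation p = 0.0621, adjusted p = 0.207) and r = 0.42 without them.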

How the data were processed

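RNA of whole iBAT depots from 5 Axl KO and 5 WT mice was sequenced, 1 library per mouse. The authors deposited raw counts per Ensembl gene for each mouse, without normalization or pooling. The methods of the study name Trim Galore, hisat2 and rRNA depletion, whereas the submitters' processing notes name bcl2fastq, Trimmomatic 0.36, STAR 2.6.1c, DESeq2 and GRCm38.p5 and the labels name polyadenylated RNA; the counting tool and its strand setting are not given in the sources used here, so counts of overlapping genes are uncertain. Identifiers were matched to GENCODE M21 (41163 of 41249).

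Counts were compared in R 4.3.3 with edgeR 4.0.16 (TMM, quasi-likelihood test, no covariate) over genes with a mean above 1 CPM, with Benjamini-Hochberg adjustment over all 13739 genes and a threshold of 0.05. Log2 CPM used a prior count of 2. Exact permutation tests used scipy 1.17.1. The procedure was tested on simulated data. The depth, 5431014 to 9580215 counts per mouse, limits genes at a few CPM.

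The members, the pathway lists and the marker lists were chosen with earlier results of these data known. Named were the 10 members, each pathway or context list's genes with an unadjusted p under 0.05 or else its largest change, the 5 genes most like Nrarp, and Axl. A few further genes (Adam10, Adam17, Rbpj, Maml1, Maml3, Axin2 and Cldn5) were named after their values were seen. A gene of the receptor cleavage list is counted but not reported here by name. Alternatives were DESeq2 1.42.0, RLE size factors, filterByExpr, no filter, a robust fit, protein-coding genes alone, the replicate number as a block, endothelial or skeletal muscle markers as a covariate, and each mouse left out in turn.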

Additional observations from a re-analysis of the deposited data

Results flagged for a closer look

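Among 22 groups of 5 mice (10 Notch genes and Axl, in each genotype), 3 had 1 mouse far from the other 4 by Dixon's criterion, where chance gives about 1.1. Notch2 in Axl KO mice was at 81.3 CPM in mouse 5 (431 counts), with the nearest mouse at 96.3 CPM. Hey1 in WT mice was at 7.82 CPM in mouse 5 (62 counts), with the nearest mouse at 4.14 CPM. Axl in Axl KO mice was at 0.438 CPM in mouse 4 (3 counts), with the nearest mouse at 1.70 CPM.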

How the results depend on the processing

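Over 19 alternatives, 1 gene was called under each except DESeq2, which called 9; the cause was not tested. The count of Notch genes with lower means stayed between 8 and 10 of 10, and their median log2 fold change between -0.22 and -0.05, nearest to 0 with the endothelial covariate and, among mice left out, without WT mouse 5 (-0.08). These include Nrarp, which was picked by its fall. Without Nrarp the count was 7 to 9 of 9, and the median ranged from -0.22 without WT mouse 3 to -0.04 with the endothelial covariate. Of the 65 pathway genes without Nrarp, the other described Notch genes included, 6 had an unadjusted p under 0.05. With the endothelial covariate 3 did, when the share of all genes was 4.67% in place of 8.38%. With 1 mouse left out 4 to 9 did, and the 9 came without Axl KO mouse 3, when 14.8% of all genes passed. None of the 9 Notch genes that can be tested was called under any alternative. Their count at an unadjusted p under 0.05, 0 as reported, was 2 with the replicate block and without Axl KO mouse 3, 1 without Axl KO mouse 4, Axl KO mouse 5 or WT mouse 1, and 0 otherwise. At that threshold the share of all genes was 7.64% with the block and 14.8% without Axl KO mouse 3. It was 7.56% without Axl KO mouse 4, 7.08% without Axl KO mouse 5 and 6.70% without WT mouse 1. The log2 fold change of Nrarp, which carries no test, ranged from -1.23 to -0.85.

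Signs turned for 3 genes. Jag1 was at -0.0103 with the endothelial and -0.0180 with the skeletal muscle covariate, and from -0.0405 to 0.0655 with 1 mouse left out. Jag2 was at 0.0267 with the endothelial covariate. Hey1 was at -0.00137 with the skeletal muscle covariate and from -0.0779 to 0.329 with 1 mouse left out. With the replicate block 1 gene was called, 1050 had an unadjusted p under 0.05, 8 of 10 Notch genes were lower, the median was -0.17 and Nrarp was at -1.05. Deviations of same-numbered mice correlated at -0.19, 0.37, 0.05, 0.06 and -0.36, and not every mouse correlated best with its own number. These values cannot tell whether same-numbered mice share a litter or a batch, and the sample records name no pairing. The relation to the endothelial markers gave 0 of 10, and so did each of its 13 alternatives. These were RLE size factors, the endothelial marker Pecam1 alone, each mouse left out in turn, and pericyte and smooth muscle markers in place of the endothelial ones. Genes at a few CPM, such as Nrarp and Hey1, are limited by depth.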
